A study of Rattus norvegicus with 6 samples.

Results

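The enzymes that activate fatty acids and break them down by beta-oxidation were followed from the control to the fibrotic rat liver. Members were the genes whose symbol starts with Acad, Acaa, Acox, Acot, Acsl, Acsm, Ehhadh, Hadh or Cpt, and 43 of the 19616 genes of the expression table matched. Liver RNA of male SD rats, depleted of ribosomal RNA, was sequenced with 1 library per rat. Rats of the hepatic fibrosis group (FL2, FL5 and FL12) had received intraperitoneal CCl4, a solvent that injures hepatocytes, mixed 1:1 with olive oil at 2 mL/kg. Injections were given 2 times a week over 5 weeks, and rats of the control group (CL5, CL6 and CL7) received olive oil alone in the same volume. The question was how the transcripts of mitochondrial enzymes, peroxisomal enzymes and thioesterases differed between the 3 FL and the 3 CL rats.

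A fatty acid has to be joined to coenzyme A before it can be used, which is the work of the acyl-CoA synthetases (Acsl for long chains, Acsm for medium chains). Long-chain acyl-CoA then crosses into the mitochondrion as a carnitine ester through the Cpt enzymes, and a repeated cycle of dehydrogenation, hydration, oxidation and cleavage shortens it to acetyl-CoA. Peroxisomes run a cycle of the same kind on very long and branched chains and on bile acid precursors, with an oxidase in place of the first dehydrogenase. Thioesterases of the Acot family cut acyl-CoA back to the free acid and coenzyme A. Hepatocytes are rich in many of these enzymes, though not in every isoform, and many of the genes are known targets of the nuclear receptor PPAR alpha.

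Values are FPKM, the fragments of a gene per length of its transcript and per size of the library, and they are listed in the order CL5, CL6, CL7 and FL2, FL5, FL12. Differences are FL minus CL on the scale of log2(FPKM + 0.1), with standard errors and adjusted p-values from limma, and a gene was called at an adjusted p under 0.05. Of the 43 members, 40 reached the mean of 0.1 FPKM that the test required. The other 3 were Acoxl (highest value 0.11 FPKM, in FL5), Acot6 (0.16 FPKM, in FL2) and Acsl6 (0.03 FPKM, in FL2, and listed at 0 in the other 5 rats). Of the 40 tested, 4 were called higher in the FL group (10.0%), against 16.9% of all 14864 genes tested, and 1 was called lower (2.5%), against 1.94%. With a limit of 2-fold added, 2 members were higher and 0 lower, where all genes gave 9.29% and 0.935%. At an unadjusted p under 0.05, limma gave 7 members higher (17.5%) and 3 lower (7.5%), against 31.5% and 4.04% of all genes. The values of the FL and CL rats did not overlap for 11 members that were higher and 3 that were lower in the FL group (27.5% and 7.5%), and for all genes these shares were 35.7% and 4.78%. For increases the shares of the members lay below those of all genes, and each count of decreases rested on 3 genes or fewer.

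Scaling between rats shifted the median of all genes. This median difference of all genes tested was 0.29 as deposited, 0.08 after median scaling, -0.04 after quantile normalization and 0.46 after scaling to equal FPKM sums. The 40 members had a median of 0.25 as deposited, or -0.04 relative to all genes, and the relative median was -0.05, 0.07 and -0.03 under the same 3 scalings. Counts of calls followed the scaling. Median scaling left 0 members higher and 3 lower (Acadm, Acadsb and Acsl1), quantile normalization left 0 higher and 1 lower (Acadsb), and equal FPKM sums gave 7 higher and 1 lower. For all genes the shares called higher and lower were 8.75% and 3.59% with median scaling, 5.23% and 3.61% with quantile normalization, and 26.5% and 1.28% with equal FPKM sums, and 7 members are 17.5% and 3 are 7.5%. At an unadjusted p under 0.05, median scaling gave 4 members higher (10.0%, against 19.2% of all genes) and 8 lower (20%, against 9.47%). Quantile normalization gave 3 higher (7.5%, against 13.1%) and 4 lower (10.0%, against 13.5%). Equal FPKM sums gave 15 higher (37.5%, against 42.3%) and 1 lower (2.5%, against 2.14%). Classes of enzymes are therefore also given as relative medians, with the median of all genes subtracted.

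Leaving out single rats moved the counts of members and those of all genes. There were 2 members higher without CL5 (5.0%, against 8.65% of all genes) and 6 without FL2 (15.0%, against 21.5%). There were 0 without CL6, CL7, FL5 or FL12, where 8.8%, 6.08%, 6.04% and 8.64% of all genes were higher. At an unadjusted p under 0.05 limma gave 6, 4, 5 and 8 members higher in these 4 settings, beside 27.6%, 23.0%, 24.5% and 25.8% of all genes. The count of lower members was 0 without CL7 (0.814% of all genes), with 3 at an unadjusted p under 0.05 (3.36% of all genes), and 3 without FL5 (1.13% of all genes).

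**Figure D1:**
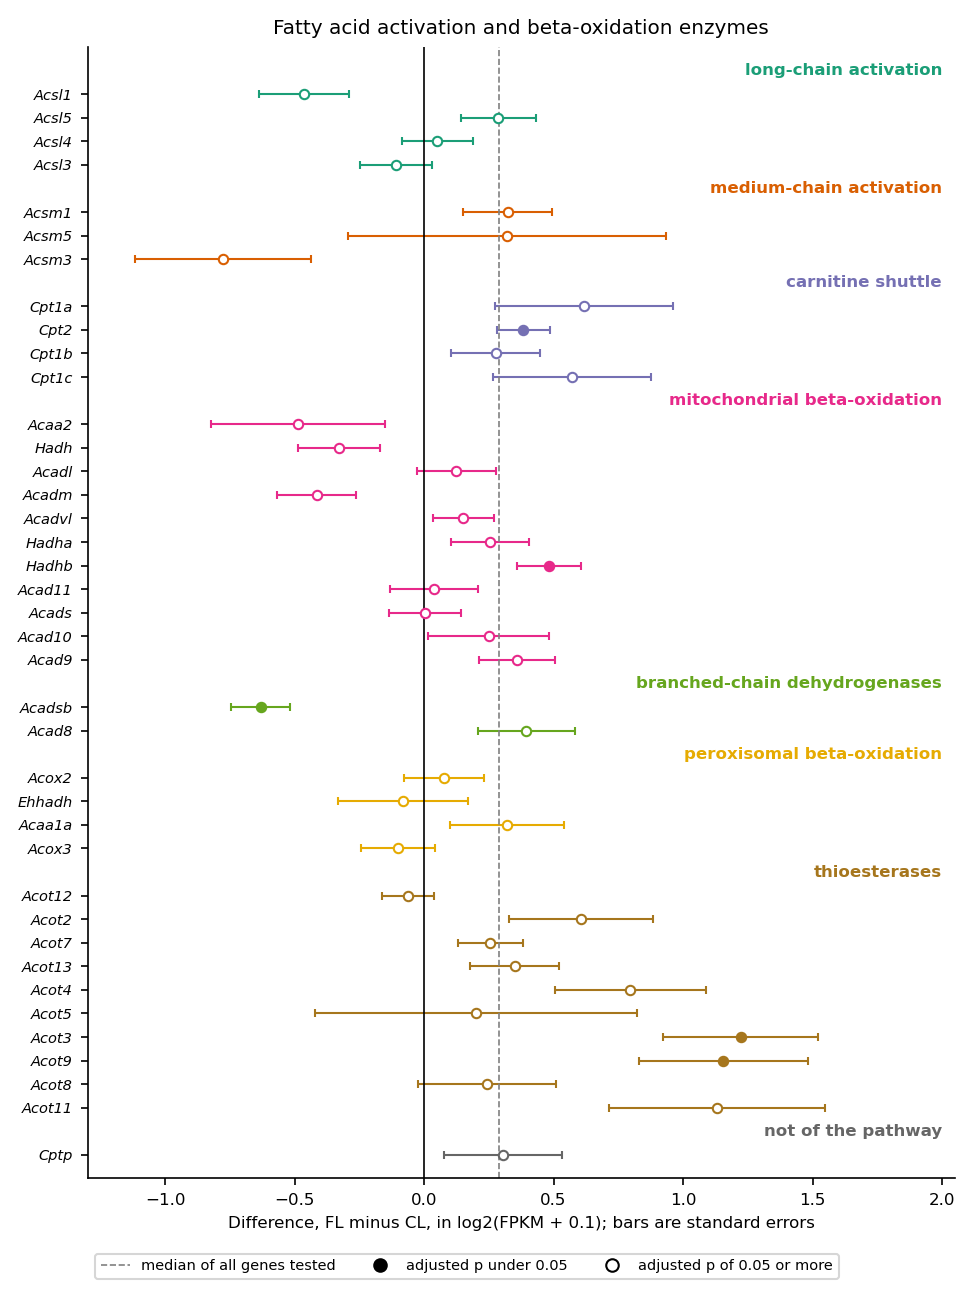
Difference between the FL and the CL group in log2(FPKM + 0.1) for 39 of the 40 members tested, grouped by role, with limma estimates from 3 rats a group as deposited, standard errors as bars, filled points at an adjusted p under 0.05 and a dashed line at the median of all genes. The 5 filled points are Cpt2, Hadhb, Acot3 and Acot9 to the right and Acadsb to the left, and of these only Acadsb passed with median scaling or quantile normalization.

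Cell type markers were read beside the enzymes, and 16.9% of all genes tested were called higher. Stellate cell or myofibroblast markers were higher in 5 of 8 genes tested (Col1a1, Col3a1, Pdgfrb, Des and Dcn), and their 9 genes summed to 81.8, 85.8 and 80.0 FPKM in the CL rats and to 202, 543 and 495 FPKM in the FL rats, most of it from Col3a1. Of 8 macrophage markers 3 were higher (Cd68, Marco and Csf1r), with sums of 138, 133 and 135 FPKM against 293, 279 and 153 FPKM and Clec4f as the most abundant. None of the 10 hepatocyte markers was called by limma in either direction, and 1 was higher at an unadjusted p under 0.05. The standard error from limma was 0.98 for albumin and 0.48 for Tf, although the rats of a group lay close together. Albumin read 31431 to 33392 FPKM in the CL rats and 24149 to 25209 FPKM in the FL rats. A hepatocyte marker without a call is therefore not shown to be equal between the groups. The hepatocyte markers summed to 52020, 49319 and 49974 FPKM in the CL rats and to 43845, 44539 and 42561 FPKM in the FL rats, without overlap. Albumin (Alb) made up 60.7% of the sum, and the other 9 markers overlapped, with sums of 18628, 17888 and 17982 FPKM and of 19696, 19487 and 17352 FPKM. Of these 9, Apoa1 (1126 to 1183 against 1535 to 2135 FPKM, adjusted p = 0.1) and Tf (5796 to 5974 against 6943 to 7746 FPKM, adjusted p = 0.671) lay above every CL rat, and Ttr, Apob and Hnf4a, like Alb, lay below. Apoa1 passed in 5 of 15 alternatives (adjusted p = 0.0218 without FL2, with alternatives spanning 0.0218 to 0.306). Among the 4 endothelial markers with values Stab2 was higher (sums 59.0, 60.7 and 52.8 against 74.8, 61.5 and 69.0 FPKM, led by Kdr). Kdr itself had a negative difference (-0.21), and the other 3 had positive ones. Among 5 lymphocyte markers tested Cd2 was higher (sums of 0.99 to 1.62 against 2.15 to 3.14 FPKM, led by Cd79a). The endothelial and lymphocyte lists thus have 1 call each in 4 and 5 genes, a share near that of all genes. The call of Stab2 was lost without CL7 (adjusted p = 0.0576), and that of Cd2 with median scaling (0.0517), with quantile normalization (0.198) and without CL5 (0.0694), CL6 (0.0664) or FL5 (0.0763). Without these rats the difference was 0.64 for Stab2 and 1.18 to 1.38 for Cd2, against 0.75 and 1.39 with all rats.

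Cholangiocyte markers gave 0 calls of 5 by limma, with 1 higher at an unadjusted p under 0.05 (sums 5.38 to 7.75 against 5.38 to 11.3 FPKM, led by Epcam) and adipocyte markers 0 of 2, with 0 at an unadjusted p under 0.05 (5.97 to 6.64 against 6.42 to 10.5 FPKM, led by Cfd, with Plin1 listed at 0 in 5 of 6 rats). Of the striated muscle markers Mb and Myh7 were listed at 0 in all 6 rats, and the whole list summed to 0.14 to 0.43 FPKM, led by Actn2, the only one tested and not called. In a bulk liver sample, fewer cells of a type and less RNA per cell cannot be told apart, and the part of these markers in the differences of the enzymes was not tested.

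Acsl1, the main long-chain acyl-CoA synthetase of the liver, was the most abundant member, with 16.4% of the summed FPKM of all members. Acsl1 (ENSRNOG00000010633, chromosome 16) stood at 450.3, 344 and 352 FPKM in the CL rats and 261, 294 and 270.5 FPKM in the FL rats. Every FL rat was under the lowest CL rat, with CL5 standing highest. The difference was -0.47 (standard error 0.17) and missed the threshold (adjusted p = 0.0987). With median scaling it passed (-0.69, adjusted p = 0.0447, with alternatives spanning 0.0447 to 0.276), and with equal FPKM sums the difference was -0.29.

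Acsl5, which is found on mitochondria and the endoplasmic reticulum, read 77.2, 70.4 and 71.4 FPKM in CL rats and 77.04, 86.33 and 106 FPKM in FL rats. Its groups overlapped through CL5 and FL2. Acsl4, the synthetase with a preference for arachidonic acid, read 52.0, 49.3 and 62.7 FPKM and 55.9, 61.9 and 51.6 FPKM, so that the groups covered nearly the same range. The difference was 0.29 (standard error 0.14, adjusted p = 0.196) for Acsl5 and 0.05 (standard error 0.14, adjusted p = 0.81) for Acsl4. The difference of Acsl5 was 0.06 with median scaling, 0.46 with equal FPKM sums and 0.16 without FL12. That of Acsl4 turned to -0.17 with median scaling, -0.03 with quantile normalization and -0.02 without CL6 or without FL5, and reached 0.23 with equal FPKM sums. Acsl3, an isoform of the endoplasmic reticulum and of lipid droplets, stayed between 5.64 and 7.71 FPKM. The 4 tested synthetases had a relative median of -0.32, which was -0.14 under quantile normalization, -0.21 with a pseudocount of 1 and -0.20 with no filter on low values, which adds Acsl6. Their FPKM summed to 587, 471 and 493 in the CL rats and 399, 450.0 and 434 in the FL rats, without overlap. Acsl1 made up 69.6% of these sums, and without it they were 137, 126 and 141 FPKM and 139, 156 and 164 FPKM, with overlap.

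Medium-chain synthetases sit in the mitochondrial matrix. Acsm1 read 68.4, 60.5 and 49.7 FPKM in the control rats and 78.5, 61.2 and 83.8 FPKM in the fibrotic ones (difference 0.32, standard error 0.17, adjusted p = 0.213), and this was 0.10 with median scaling and 0.20 without CL7. Acsm5 read 30.8, 32.8 and 10.8 FPKM in the control rats and 10.8, 39.0 and 50.0 FPKM in the fibrotic ones. For Acsm5 one rat of each group, CL7 and FL2, stood at the same low level, and the spread within a group exceeded the difference of 0.32 (standard error 0.61, adjusted p = 0.735). This difference turned to -0.20 without CL7 and -0.11 without FL12, and it was 0.07 without FL5 and 0.99 without FL2. Acsm3, named here after its values were seen, read 20.4, 22.9 and 20.9 FPKM against 7.64, 22.6 and 11.1 FPKM. FL5 lay inside the control range and the other FL rats lay below it. The difference of Acsm3 was -0.78 (standard error 0.34, adjusted p = 0.143), and it was -0.43 without FL2 (adjusted p = 0.29) and -1.21 without FL5 (adjusted p = 0.0249, with alternatives spanning 0.0249 to 0.309). The relative median of the 3 genes was 0.03, and it turned to -0.46 without CL7, -0.37 without FL12, -0.20 without FL5 and -0.06 without FL2, and was 0.14 without CL5, 0.25 with quantile normalization, 0.12 with a pseudocount of 1, 0.07 with no filter, 0.08 with a mean of at least 1 FPKM, 0.02 with median scaling and 0.01 with a pseudocount of 0.01. Acsm5, Acsm2, Acsm1 and Acsm4 lie near one another on chromosome 1 in the RefSeq assembly GRCr8, and how alike they are was not measured here. Reads of similar genes could have been split or lost, so their levels are uncertain.

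Cpt1a, the outer membrane enzyme whose inhibition by malonyl-CoA sets how much fatty acid enters the mitochondrion, read 74.0, 41.2 and 50.4 FPKM in the CL group. In the FL group it read 128, 86.5 and 50.0 FPKM. FL2 and FL5 lay above every control rat, whereas FL12 lay inside their range. The difference of 0.62 (standard error 0.34) was not called (adjusted p = 0.235), and it was 0.30 without FL2, 0.97 without FL12 and 0.39 with median scaling.

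Cpt2, the inner membrane enzyme that turns the carnitine ester back into acyl-CoA, behaved more evenly. It had 23.6, 24.4 and 24.4 FPKM in the CL rats and 31.5, 33.3 and 29.8 FPKM in the FL rats. Every FL rat was above every CL rat, and the control values lay within 1 FPKM of each other. Cpt2 (ENSRNOG00000012443, chromosome 5) rose by 0.38 (standard error 0.10, adjusted p = 0.0376), and the alternatives spanned 0.0173 to 0.357. Its call was lost with median scaling (0.16, adjusted p = 0.357), with quantile normalization (0.26, adjusted p = 0.14) and in limma without trend (adjusted p = 0.0832). It was also lost without CL5 (adjusted p = 0.0981), CL6 (0.0966), CL7 (0.107), FL5 (0.111) or FL12 (0.0533), where the difference lay between 0.34 and 0.42. The muscle form Cpt1b lay at 1.42 FPKM or below in the CL rats and between 1.53 and 1.81 FPKM in the FL rats, and the brain form Cpt1c between 0.23 and 0.49 FPKM and between 0.51 and 0.58 FPKM. Neither was called (adjusted p = 0.282 and 0.218), and the sign of both turned with quantile normalization. The 4 genes of the shuttle had a relative median of 0.19, which was 0.018 without FL2, 0.081 without CL5, 0.094 without CL6 and 0.099 with a pseudocount of 1.

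Within the mitochondrial cycle, the first step is taken by acyl-CoA dehydrogenases that differ in chain length. Acadm, the medium-chain enzyme, stood at 108, 104 and 102 FPKM in the CL rats and 68.4, 95.8 and 73.2 FPKM in the FL rats. All FL rats were lower than all CL rats, but FL5 came within 6 FPKM of CL7. Its difference was -0.42 (standard error 0.15, adjusted p = 0.0926). It passed with median scaling (-0.64, adjusted p = 0.0294) and without FL5 (-0.56, adjusted p = 0.0498), with alternatives spanning 0.0294 to 0.326, and was -0.24 with equal FPKM sums. Acadl, the long-chain enzyme, had 127, 103 and 96.4 FPKM in the CL rats and 105, 128 and 122 FPKM in the FL rats. These groups overlapped over most of their range (difference 0.12, standard error 0.15, adjusted p = 0.588). The sign turned with median scaling (-0.10), and the difference was 0.04 without CL7, 0.07 without FL5, 0.21 without FL2, 0.24 without CL5 and 0.30 with equal FPKM sums.

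Of the other 5 dehydrogenases placed with this cycle, Acadvl, for very long chains, was without overlap at 76.7 to 85.5 FPKM in the CL rats and 86.2 to 97.0 FPKM in the FL rats (adjusted p = 0.388), and its difference of 0.15 turned to -0.07 with median scaling. Acad9, which also serves the assembly of respiratory complex I, lay between 4.26 and 5.58 FPKM in the CL rats and between 5.92 and 7.08 FPKM in the FL rats (adjusted p = 0.121). Equal FPKM sums gave Acad9 a call (adjusted p = 0.0476, with alternatives spanning 0.0476 to 0.766). Acads, the short-chain enzyme, Acad10 and Acad11 overlapped between the groups, with differences of 0.00, 0.25 and 0.04. Median scaling put these at -0.22, 0.03 and -0.18. Acads was 0.13 without CL6 and -0.06 without CL7 or without FL5. Acad10 was 0.07 without FL5, 0.10 without CL6 and 0.48 without CL5, and Acad11 turned to -0.15 without CL7 and was 0.15 without CL5.

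The later steps are carried by Hadh, the trifunctional protein and the thiolase Acaa2. Hadh, the short-chain hydroxyacyl-CoA dehydrogenase, read 132, 132 and 119 FPKM in the control group and 90.6, 124 and 92.8 FPKM in the fibrotic group. FL5 again lay with the controls, and the difference of -0.33 was not called (standard error 0.16, adjusted p = 0.175). It was -0.55 with median scaling and -0.15 with equal FPKM sums. Acaa2, which cleaves off acetyl-CoA, read 196, 179 and 96.3 FPKM and 72.3, 152 and 111 FPKM in the same order. CL7 lay among the FL rats, and the standard error of 0.34 left a difference of -0.49 uncalled (adjusted p = 0.33). This difference was -0.21 without FL2, -0.30 without CL5, -0.74 without FL5, -0.81 without CL7 and -0.31 with equal FPKM sums.

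The trifunctional protein has an alpha subunit, Hadha, with hydratase and dehydrogenase activity, and a beta subunit, Hadhb, with thiolase activity. Hadha stood at 70.9, 61.8 and 52.1 FPKM in the CL rats and 64.6, 79.4 and 75.4 FPKM in the FL rats. Hadhb had 33.1, 33.0 and 32.0 FPKM in the CL rats and 39.8, 46.9 and 51.2 FPKM in the FL rats. Hadha overlapped between the groups through FL2 and CL5, while for Hadhb the 3 FL rats stood above a narrow control range. The difference of Hadha was 0.25 (standard error 0.15, adjusted p = 0.264), and Hadhb (ENSRNOG00000010800, chromosome 6) rose by 0.48 (standard error 0.12, adjusted p = 0.0333, with alternatives spanning 0.0124 to 0.151). The call of Hadhb was lost with median scaling (0.26, adjusted p = 0.151), with quantile normalization (0.38, adjusted p = 0.1) and in limma without trend (adjusted p = 0.0718). Leaving out CL5 (adjusted p = 0.0823), CL6 (0.0906), CL7 (0.109), FL5 (0.101) or FL12 (0.0842) also ended it, with differences from 0.40 to 0.49. The difference of Hadha was 0.03 with median scaling, 0.43 with equal FPKM sums and 0.14 without CL7.

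The 11 genes of the mitochondrial cycle had differences from -0.49 to 0.48, with 8 above and 3 below 0, and a median of 0.12. With median scaling 4 were above and 7 below 0, and with quantile normalization 6 and 5. Of all genes, 77.9% were above 0 as deposited, 57.9% with median scaling and 45.5% with quantile normalization. Relative to all genes the median was -0.16, which turned to 0.10 with quantile normalization and was -0.10 without CL5 and -0.06 with a pseudocount of 1. Summed over the 11 genes, the level was 842, 784 and 643 FPKM in the CL rats and 614, 806 and 703 FPKM in the FL rats, with the lowest sums in FL2 and CL7.

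A pair of dehydrogenases acts on branched chains from amino acids and not on straight fatty acids. Acadsb, for short branched chains such as those from isoleucine, stood at 42.3, 42.1 and 46.4 FPKM in the CL rats and 27.2, 31.1 and 26.2 FPKM in the FL rats. The lowest control rat stood 11 FPKM above the highest FL rat. Acadsb (ENSRNOG00000020624, chromosome 1) fell by 0.63 (standard error 0.11, adjusted p = 0.011), and the FL mean was 64.6% of the CL mean. Among the 5 called members it was the one that passed in 14 of 15 alternatives, every scaling included. The exception was without CL7 (-0.59, adjusted p = 0.0502, with alternatives spanning 0.0082 to 0.0502).

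Acad8, the isobutyryl-CoA dehydrogenase of valine breakdown, had 6.95, 7.62 and 7.38 FPKM in the CL rats and 13, 8.72 and 7.89 FPKM in the FL rats. FL2 stood apart at the top, and the other FL rats lay just above the controls. The difference was 0.39 (standard error 0.19, adjusted p = 0.172), and it was 0.18 without FL2, 0.17 with median scaling and 0.13 with quantile normalization. Equal FPKM sums gave it a call (adjusted p = 0.0358, with alternatives spanning 0.0358 to 0.732). The pair had a relative median of -0.41, which was -0.26 with quantile normalization.

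Peroxisomal enzymes gave 0 calls by limma in 5 genes tested, where 16.9% of all genes were called higher and 1.94% lower. At an unadjusted p under 0.05 the count was 0 as well, beside 31.5% and 4.04% of all genes. No test compared a count in so few genes with these shares. Acox2, the oxidase of bile acid precursors, had 136, 122 and 116 FPKM in the CL rats and 156, 126.5 and 114 FPKM in the FL rats. FL2 was the highest of all rats, FL5 lay among the controls and FL12 just below them. The difference was 0.08 (standard error 0.16, adjusted p = 0.752). It turned to -0.15 with median scaling and -0.05 without FL2, and it was 0.03 without CL7, 0.14 without CL5, 0.17 without FL12 and 0.26 with equal FPKM sums.

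Ehhadh, the bifunctional enzyme that hydrates and then oxidizes the chain, read 82.5, 64.0 and 69.7 FPKM in the control rats and 46.2, 70.4 and 95.7 FPKM in the fibrotic rats. The FL rats enclosed the control range, with FL2 below it and FL12 above. Acaa1a, the peroxisomal thiolase, read 59.7, 58.3 and 42.4 FPKM in the control rats and 49.0, 71.3 and 82.4 FPKM in the fibrotic rats. Here FL5 and FL12 lay above the controls and FL2 among them. The differences were -0.08 for Ehhadh (standard error 0.25, adjusted p = 0.84) and 0.32 for Acaa1a (standard error 0.22, adjusted p = 0.326). That of Ehhadh turned to 0.20 without FL2, 0.02 without CL5 and 0.10 with equal FPKM sums, and it was -0.16 without CL6, -0.33 without FL12 and -0.31 with median scaling. That of Acaa1a was 0.16 without CL7 or without FL12, 0.54 without FL2, 0.10 with median scaling and 0.50 with equal FPKM sums. Acox3, a branched-chain oxidase, ranged from 42.3 to 58.02 FPKM over the 6 rats.

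The peroxisomal genes had a median of -0.08, or -0.37 relative to all genes, and the relative median was -0.01 with quantile normalization.

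Thioesterases had sums of 78.4, 64.9 and 60.1 FPKM in the CL rats and 71.5, 91.2 and 85.3 FPKM in the FL rats. Acot12, a cytosolic enzyme that acts on acetyl-CoA, made up 40.1% of the class and was the steadiest in it, at 31.4, 30.4 and 30.7 FPKM against 30.8, 28.6 and 29.3 FPKM. Its groups overlapped (difference -0.06, standard error 0.10, adjusted p = 0.676). The sign turned with equal FPKM sums (0.11), and the difference was -0.29 with median scaling and -0.18 with quantile normalization.

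Acot3, a peroxisomal thioesterase of long chains, stood at 2.97, 1.41 and 1.76 FPKM in the CL rats and 3.45, 6.08 and 4.89 FPKM in the FL rats. The groups did not overlap, although CL5 came close to FL2. Acot3 (ENSRNOG00000053460, chromosome 6) rose by 1.22 (standard error 0.30, adjusted p = 0.0291, with alternatives spanning 0.0184 to 0.11). The call was lost with median scaling (adjusted p = 0.0655), with quantile normalization (0.86, adjusted p = 0.108) and in limma without trend (adjusted p = 0.0561). Without CL6 the adjusted p was 0.0876, without CL7 0.105, without FL5 0.11 and without FL12 0.0924.

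Acot9, a mitochondrial thioesterase (ENSRNOG00000003782, chromosome X), had 1.84, 1.08 and 0.79 FPKM in the CL rats and 2.42, 3.83 and 2.17 FPKM in the FL rats. The groups did not overlap, and FL5 stood highest. It rose by 1.16 (standard error 0.33, adjusted p = 0.0446, with alternatives spanning 0.0236 to 0.204). That call was lost with no filter on low values (adjusted p = 0.0729), median scaling (0.94, adjusted p = 0.0997), quantile normalization (0.71, adjusted p = 0.204) and limma without trend (0.0733). Of the single rats, leaving out CL6 (adjusted p = 0.117), CL7 (0.146), FL2 (0.0613), FL5 (0.149) or FL12 (0.077) ended it, with differences from 0.90 to 1.31.

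Acot2, the mitochondrial enzyme whose gene neighbours Acot1, stood at 11.9, 9.66 and 6.97 FPKM in the CL rats and 9.51, 18.6 and 16.1 FPKM in the FL rats. FL5 and FL12 exceeded every control rat, and FL2 lay inside the control range. The difference was 0.60 (standard error 0.28, adjusted p = 0.16), or 0.40 without CL7 and 0.38 with median scaling, and it was called without FL2 (adjusted p = 0.0346, with alternatives spanning 0.0346 to 0.413). Without FL2, Acot4 (adjusted p = 0.0293, with alternatives spanning 0.0293 to 0.293) and Acot11 (adjusted p = 0.0483, with alternatives spanning 0.0483 to 0.41) were called as well, so that 6 members were higher. Acot5, named here after its values were seen, read 10.4, 2.49 and 2.29 FPKM against 2.23, 7.50 and 5.48 FPKM. CL5 alone exceeded every other rat in Acot5, by a margin that its own group did not share, and its difference was 0.89 without CL5 and -0.17 without CL7, against 0.20 with all rats (adjusted p = 0.838). Equal FPKM sums gave Acot13 a call (adjusted p = 0.0476, with alternatives spanning 0.0476 to 0.867). Acot7, Acot8, Acot11 and Acot13 ranged from 0.03 to 10.5 FPKM, and none of these 4 was called as deposited.

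Of the 10 thioesterases tested, 9 had positive differences, which became 8 with median scaling, 7 with quantile normalization and 10 with equal FPKM sums. Of all genes, 77.9%, 57.9%, 45.5% and 87.1% had positive differences in the same order. The relative median was 0.19 as deposited, 0.18 with median scaling, 0.27 with quantile normalization and 0.20 with equal FPKM sums, and it was 0.096 with a pseudocount of 1 and 0.11 with a mean of at least 1 FPKM. It was 0.55 without CL5, 0.46 without FL2 and 0.082 without FL5, and CL5 was the highest control rat for Acot2, Acot3, Acot4, Acot5, Acot7, Acot9, Acot11 and Acot12. In the RefSeq assembly GRCr8, Acot2 and Acot1 are neighbours on chromosome 6, and so are Acot4, Acot3, Acot5 and Acot6. No gene of the table carried the symbol Acot1. How alike these copies are was not measured here. Uniquely placed reads of similar copies may be lost or assigned to another copy, so the levels of the chromosome 6 thioesterases are uncertain.

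**Figure D2:**
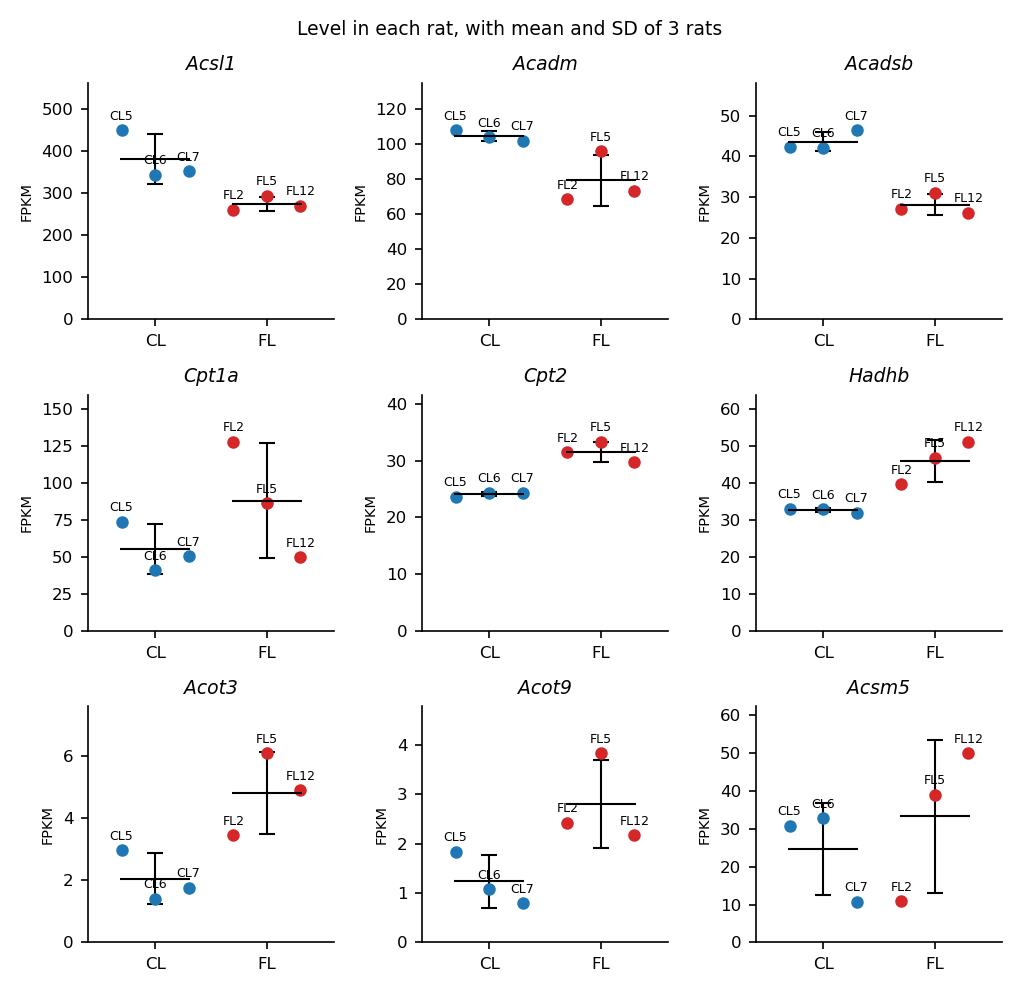
FPKM of 9 members in each rat, with CL rats in blue and FL rats in red, black bars for the mean and SD of 3 rats, and axes that start at 0. Acsl1, Acadm and Acadsb lie lower and Cpt2, Hadhb, Acot3 and Acot9 higher in the FL rats without overlap. Acadsb, Cpt2, Hadhb, Acot3 and Acot9 were called as deposited, and of these Acadsb alone with median scaling or quantile normalization. Acsl1 and Acadm were not called as deposited but were called with median scaling.

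Cptp, the remaining match, carries a ceramide-1-phosphate transfer protein and belongs to the list by its symbol alone. It had 2.38, 2.56 and 2.23 FPKM in the CL rats and 3.70, 3.41 and 2.07 FPKM in the FL rats. FL12 lay below the controls and the other FL rats above them. The difference of 0.30 (standard error 0.23, adjusted p = 0.365) turned to -0.11 with quantile normalization and was 0.15 without FL2 and 0.56 without FL12.

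To compare enzymes in a way that a common factor for each rat cannot change, although quantile normalization can, the ratio of 2 enzymes was taken inside each rat. Of the ratios given here, only Acaa1a over Acaa2 compares the peroxisome with the mitochondrion. With 3 rats against 3, the exact permutation test (two-sided) cannot give a p below 0.1, so no ratio could pass 0.05. Acaa1a over Acaa2, the thiolases of peroxisome and mitochondrion, was 0.305, 0.326 and 0.44 in the CL rats and 0.677, 0.47 and 0.74 in the FL rats. Every FL rat had more Acaa1a per Acaa2 than every CL rat. The difference in log2 was 0.81 (standard error 0.26), with an exact permutation p of 0.1, the smallest possible, and an adjusted p of 0.15 over the 6 ratios tested, of which 5 are given.

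The ratio of Acadm to Acadl was 0.846, 1.005 and 1.06 in the CL rats and 0.649, 0.75 and 0.599 in the FL rats. Acsl1 over Acsl4 gave 8.67, 6.98 and 5.63 in the CL rats and 4.67, 4.76 and 5.24 in the FL rats. These ratios were lower in each FL rat than in each CL rat, by -0.54 (standard error 0.14) and -0.52 (standard error 0.19) in log2, again with an exact permutation p of 0.1 (adjusted p = 0.15). Hadha over Hadhb was 2.14, 1.87 and 1.63 against 1.63, 1.69 and 1.47, with CL7 and FL2 at the same value (difference -0.23, standard error 0.13, exact permutation p = 0.3). Cpt1a over Cpt2 was 3.13, 1.69 and 2.07 against 4.07, 2.59 and 1.68, and here the FL rats enclosed the CL rats (difference 0.23, standard error 0.45, exact permutation p = 0.7). Hadha over Hadhb moved to a difference of -0.13 without CL5, and Acsl1 over Acsl4 to -0.31 with quantile normalization. Cpt1a over Cpt2 moved to 0.48 without CL5, 0.037 without CL6, -0.09 without FL2 and 0.55 without FL12. The ratio of Acot1 to Acot2 was not analysed here.

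**Figure D3:**
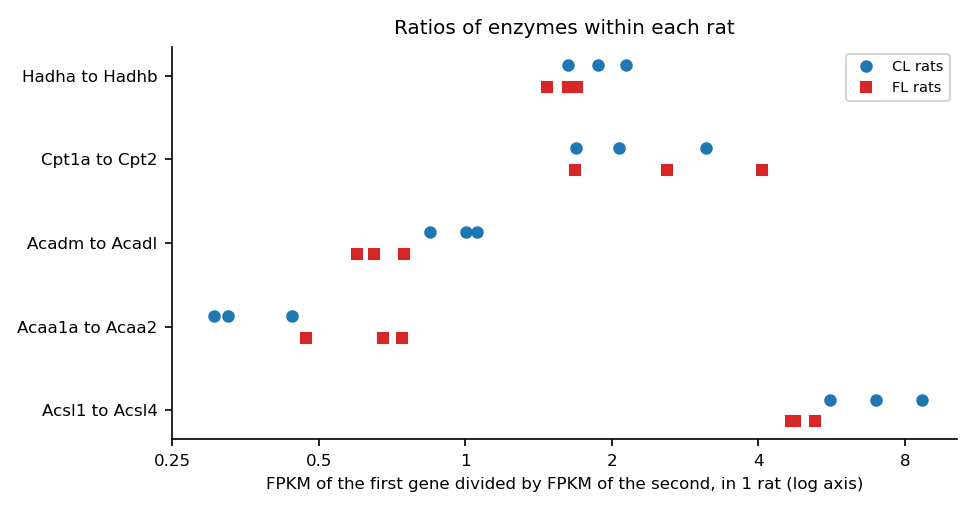
Ratio of the FPKM of 2 enzymes within each rat on a log axis, with CL rats as blue circles and FL rats as red squares. The groups do not overlap for Acadm to Acadl, Acaa1a to Acaa2 and Acsl1 to Acsl4, which is the smallest exact p of 0.1 that 3 against 3 rats allow, and they overlap for Hadha to Hadhb and Cpt1a to Cpt2.

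Rats of the same group differed from each other in an uneven way. CL5 was the highest of the 3 control rats for 28 of the 40 members tested (70.0%), against 36.3% of all genes tested, and CL7 was the lowest for 25 (62.5%), against 40.5% of all genes. Among the FL rats, FL2 was the lowest for 23 members (57.5%), close to its 53.8% over all genes, and FL5 was the highest for 20 (50.0%), against 36.4%. The members that were highest in FL2 were Acad8, Acad11, Acot12, Acot13, Acox2, Acox3, Cpt1a and Cptp. Among members with a mean of at least 1 FPKM (38 genes), the median coefficient of variation was 13.2% in the CL group and 16.3% in the FL group, near the 11.8% and 14.4% of the 10535 genes at that level. CL5 was also the deepest library, with a relative depth of 1 against 0.656 in CL6, 0.84 in CL7 and 0.677 to 0.75 in the FL rats, and the part of depth in the ranks was not tested.

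Other genes of the pathway were read from lists chosen by function. Of 23 further genes of the beta-oxidation steps and their electron transfer, 2 were higher (8.7%, against 16.9% of all genes), 1 was lower (4.35%, against 1.94%) and 20 were not called. Their median difference was -0.03, or -0.32 relative to all genes. Crat, the carnitine acetyltransferase that buffers acetyl-CoA, stood at 12.3, 11.0 and 8.36 FPKM in the CL rats and 15.5, 22.0 and 17.4 FPKM in the FL rats. Ech1, an isomerase for unsaturated chains, read 54.1, 38.2 and 33.9 FPKM and 57.5, 68.1 and 73.2 FPKM. Both were without overlap, and they rose by 0.79 (standard error 0.18, adjusted p = 0.0243) and by 0.68 (standard error 0.19, adjusted p = 0.0433).

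Pecr, a peroxisomal enoyl-CoA reductase of chain elongation, had 98.6, 93.1 and 80.2 FPKM in the CL rats and 68.3, 67.6 and 57.2 FPKM in the FL rats. No FL rat reached the lowest control, and Pecr fell by 0.49 (standard error 0.14, adjusted p = 0.0412). The most abundant genes of this list were Phyh, the phytanoyl-CoA hydroxylase of alpha-oxidation, and Hsd17b10, a mitochondrial hydroxyacyl-CoA dehydrogenase. Phyh ranged from 187 to 285 FPKM in the FL rats and enclosed the CL range (adjusted p = 0.901), and Hsd17b10 read 172 to 209 FPKM in the CL rats and 145 to 171 FPKM in the FL rats without a call (adjusted p = 0.267).

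For uptake and import into the peroxisome, 1 of 8 genes was lower and 0 were higher by limma, where 1.94% and 16.9% of all genes were, and at an unadjusted p under 0.05 the list had 1 lower and 1 higher. Fabp1, the fatty acid binding protein that carries fatty acids through the hepatocyte cytosol, stood at 814, 641 and 565 FPKM in the CL rats and 394, 388 and 391 FPKM in the FL rats. The FL rats were almost equal and lay below every control rat, and Fabp1 fell by 0.77 (standard error 0.20, adjusted p = 0.0356). Slc27a2, an acyl-CoA synthetase for very long chains that also takes up fatty acids, read 207 to 229 FPKM in the CL rats and 189 to 222 FPKM in the FL rats (adjusted p = 0.736). The median of the list was 0.08, or -0.21 relative to all genes. Bdh1, which interconverts the ketone bodies, ranged from 71.5 to 92.6 FPKM in the CL rats and from 57.6 to 76.1 FPKM in the FL rats, with overlap (adjusted p = 0.184). It was called in 1 of 15 alternatives, which spanned adjusted p-values of 0.0421 to 0.579 and differences of -0.54 to -0.13.

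PPAR alpha, its partners and known targets moved both ways, with 5 of 18 genes higher and 4 lower, beside 16.9% and 1.94% of all genes tested, and a relative median of -0.22. The receptor itself, Ppara, was between 19.0 and 34.8 FPKM in the CL rats and between 18.3 and 42.0 FPKM in the FL rats (difference 0.10, standard error 0.32, adjusted p = 0.85), and the sign turned with median scaling, with quantile normalization, without CL6 and without FL12. Creb3l3, a liver transcription factor that acts with PPAR alpha and was the most abundant gene of this list, read 101, 73.4 and 70.2 FPKM against 101, 98.6 and 101 FPKM (adjusted p = 0.193).

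Cyp4a1, which hydroxylates fatty acids at the omega end, had 69.6, 54.9 and 48.9 FPKM in the CL rats and 77.3, 95.0 and 131 FPKM in the FL rats. Vnn1, a pantetheinase, stood at 5.90, 6.15 and 3.69 FPKM in the CL rats and 10.5, 12.9 and 17.5 FPKM in the FL rats. Both were without overlap and highest in FL12, with increases of 0.79 (standard error 0.22, adjusted p = 0.0411) and 1.36 (standard error 0.24, adjusted p = 0.0107). Fgf21, a hormone that the liver secretes in fasting, read 4.65, 1.86 and 3.11 FPKM against 11.4, 5.01 and 17.8 FPKM and rose by 1.71 (standard error 0.47, adjusted p = 0.0412). FL5 was barely above CL5 in this gene. Ppargc1b, a coactivator, was at 0.77 to 1.61 FPKM in the CL rats and 1.72 to 2.55 FPKM in the FL rats (difference 0.99, standard error 0.29, adjusted p = 0.0479). Aqp7, a channel for glycerol, was listed at 0 in CL5, at 0.08 FPKM in CL6 and CL7, and at 0.71, 1.93 and 2.04 FPKM in the FL rats (difference 3.36, standard error 0.46, adjusted p = 0.0049). The control values rest on few reads and the size of this difference depends on the pseudocount, with 1.24 at a pseudocount of 1 and 5.04 at 0.01.

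Among the 4 lower targets, Pdk4, the kinase that spares glucose by switching off pyruvate dehydrogenase, had 41.2, 41.6 and 35.9 FPKM in the CL rats and 23.7, 16.3 and 13.7 FPKM in the FL rats. Lpin1, a phosphatidate phosphatase that also acts as a coactivator of PPAR alpha, stood at 38.3, 36.6 and 40.9 FPKM in the CL rats and 21.9, 22.5 and 20.8 FPKM in the FL rats. The groups were far apart for both, and the FL rats were nearly equal for Lpin1. Pdk4 fell by 1.17 (standard error 0.20, adjusted p = 0.0086) and Lpin1 by 0.83 (standard error 0.10, adjusted p = 0.0041). Pex11a, which takes part in peroxisome division, read 5.09 to 8.33 FPKM in the CL rats and 2.68 to 4.52 FPKM in the FL rats (difference -0.89, standard error 0.25, adjusted p = 0.0419). The symbol Cyp4a2 stands for 2 genes of the table. One of them (ENSRNOG00000030154) had 154, 129 and 86.7 FPKM in the CL rats and 24.2, 40.7 and 29.3 FPKM in the FL rats, a fall of 1.96 (standard error 0.25, adjusted p = 0.0044). The other (ENSRNOG00000009741) overlapped between the groups (difference -0.01, standard error 0.19, adjusted p = 0.973), and reads of such similar genes could have been split.

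Calls of Pdk4, Lpin1, Vnn1 and the first Cyp4a2 gene held in all 15 alternatives and that of Aqp7 in the 14 in which it was tested, scalings included. The other 8 calls in the lists chosen by function, cell type markers aside, were each lost in 7 to 10 of 15 alternatives. Median scaling ended those of Crat, Ech1, Ppargc1b, Cyp4a1 and Fgf21, and equal FPKM sums those of Pecr, Fabp1 and Pex11a. Over the alternatives the adjusted p reached 0.0866 for Crat, 0.147 for Ech1, 0.129 for Pecr, 0.197 for Fabp1, 0.264 for Ppargc1b, 0.146 for Cyp4a1, 0.125 for Fgf21 and 0.124 for Pex11a.

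Leaving out single rats, which leaves fewer samples to each test, ended calls of the same 8 genes. The difference was then 0.63 to 0.83 for Crat, 0.54 to 0.65 for Ech1 and -0.58 to -0.41 for Pecr. It was -0.89 to -0.62 for Fabp1, 0.79 to 0.93 for Ppargc1b and 0.58 to 0.93 for Cyp4a1. For Fgf21 it was 1.30 to 2.02, and for Pex11a -1.03 to -0.68. Crat was lost without CL6 (adjusted p = 0.0623), CL7 (0.0819), FL5 (0.0866) or FL12 (0.0656). For Ech1 these rats gave 0.124, 0.147, 0.129 and 0.127. Pecr was lost without CL5 (0.117), CL6 (0.117), CL7 (0.0651), FL5 (0.0905) or FL12 (0.109). For Fabp1 the same 5 rats gave 0.0979, 0.0973, 0.0661, 0.0965 and 0.0924, and for Cyp4a1 0.0532, 0.113, 0.146, 0.11 and 0.101. Ppargc1b was lost without CL5 (0.134), CL6 (0.129), FL5 (0.154) or FL12 (0.136). Fgf21 was lost without CL5 (0.0547), CL6 (0.119), CL7 (0.118), FL2 (0.0857) or FL12 (0.123), and for Pex11a these rats gave 0.118, 0.0888, 0.0716, 0.0867 and 0.124.

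Sequences before the gene starts were available for 37 of the 43 members, in 38 of the 33469 promoter windows of the RefSeq assembly GRCr8, each with 250 bases before and 50 after the start. The strict direct repeat with 1 base between its parts, which the receptor pair of PPAR alpha and RXR is known to bind, was searched on both strands and was in 0 of the 38 windows and in 0.0538% of all windows. A looser form with 1 free base in each repeat, which includes it, was likewise in 0 of the 38 and in 0.415% of all. The GC box letters GGGCGG, on both strands, were in 23 of the 38 windows (60.5%) and in 33.1% of all, CCAAT in 42.1% and 37.5%, and TATAAA in the windows of Acad11, Acot3 and Acsl5 (7.89%, against 14.2% of all). The absence of the repeat says only that these letters are not in these windows.

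Hadha and Hadhb start head to head on chromosome 6, with Hadhb on the minus and Hadha on the plus strand, so a single stretch of sequence lies before both subunits of the trifunctional protein. It is shown because the 2 subunits were compared above from the same rats. The part that lies in both promoter windows and between the 2 annotated genes, chr6:31907558-31907750 on the plus strand of GRCr8 (RefSeq), holds 193 bases. Capitals mark GGGCGG on either strand, found 1 time here and in 28.3% of stretches of that length before all gene starts, and CCAAT was found 0 times, against 28.4%. The whole windows reach beyond this part. They held GGGCGG 4 times for Hadhb and 1 time for Hadha, and CCAAT 0 times for Hadhb and 1 time for Hadha.
Hadhb to Hadha: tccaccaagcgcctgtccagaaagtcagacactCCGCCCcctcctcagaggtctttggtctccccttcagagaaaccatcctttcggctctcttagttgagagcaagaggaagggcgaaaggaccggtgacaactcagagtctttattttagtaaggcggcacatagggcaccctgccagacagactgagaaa
The bases G and C made up 53.4% of it, near the median of 52.3% over stretches of that length before all gene starts.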

How the data were processed

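Liver RNA from 6 rats was measured. The authors cleaned the reads (FASTX-Toolkit), placed them by TopHat2, kept those mapped uniquely and deposited FPKM with 2 decimals, without stated scaling between rats. The study and the submitters' processing notes name GRCh38, a human build, whereas the gene identifiers are those of the rat. Groups follow the sample titles, and 2 further columns of values were not used. No pair of rats shared more than 2.87% of the values above 0, so each was counted as its own library. Depth is known only in relative form, from the lowest step of the values of 114 U6 genes.

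From these values, limma 3.58.1 in R 4.3.3, with trend, compared log2(FPKM + 0.1) over the 14864 genes whose mean reached 0.1 FPKM, with Benjamini-Hochberg adjustment over all of them. Ratios used exact permutation tests. Members, classes, lists and tests were chosen with earlier results of these data known. Values per rat are given for called members, the 2 most abundant of each class, genes in ratios, Cpt1a, Ehhadh, and members of at least 1 FPKM without overlap and a difference of at least 0.58; outside the members, for called genes and the 2 most abundant of each list. Some of these values were not used here. Alternatives were other pseudocounts (1 and 0.01), no filter or a mean of at least 1 FPKM, median scaling (over 9201 genes above 1 FPKM in every rat), quantile normalization, equal FPKM sums, limma with its trend switched off or its prior made robust, and leaving out each rat. The procedure was tested on simulated data. Python 3.11.15, numpy 2.4.6, pandas 2.3.3 and matplotlib 3.10.9 were also used. Of the listed symbols, Eci2, Cyp4a3, Ucp3, Pecam1, Lep, Retn and Myh6 were not analysed here, and Mmut was analysed under the symbol Mut.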

Additional observations from a re-analysis of the deposited data

How the results depend on the processing

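Of the 40 members tested, 23 kept the sign of their difference in every alternative in which they were tested. The other 17 changed it in at least 1, mostly with scaling. Among the 23, Acot11 was tested in 14 of the 15 alternatives, because it does not reach a mean of 1 FPKM. The number of members higher at an adjusted p under 0.05 was 4, and it was 0 with median scaling, 0 with quantile normalization, 7 with scaling to equal FPKM sums, 0 in limma without trend (13.8% of all genes), and 0 to 6 when single rats were left out. The number lower was 1, and it was 3 with median scaling and 0 to 3 when single rats were left out, which leaves fewer samples to each test. At an unadjusted p under 0.05, limma without trend gave 7 higher members (17.5%, against 30.5% of all genes). Relative to all genes, the median of the mitochondrial cycle moved from -0.16 to 0.10 with quantile normalization, that of long-chain activation from -0.32 to -0.14, and that of the peroxisomal genes from -0.37 to -0.014. The peroxisomal median was -0.27 with a pseudocount of 1 and -0.25 with no filter on low values, which adds Acoxl, and it lay between -0.42 and -0.27 when single rats were left out. Leaving out rats put the median of the carnitine shuttle between 0.018 (without FL2) and 0.21 and that of the thioesterases between 0.082 and 0.55. The cause of these changes was not tested. The ratios were run with 2 other pseudocounts, with quantile normalization and without each rat, 9 alternatives in all, and moved by less than the SD within groups, although Cpt1a to Cpt2 was -0.09 without FL2. No paired analysis was made, because the groups hold different rats and the number in a rat's name counts within its group. Absolute depth is unknown, and values near 0.1 FPKM rest on few reads.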

Other observations

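A few genes of the lists stood at levels that differ from their neighbours in the pathway, and they are named here after their values were seen. Echs1, the short-chain enoyl-CoA hydratase of the mitochondrial cycle, was listed at 0.42, 0.28 and 0.84 FPKM in the CL rats and at 0.73, 0.40 and 0.58 FPKM in the FL rats. In the same rats Hadh, the enzyme of the next step, read 90.6 to 132 FPKM. Cd36, a fatty acid translocase, was at 0.07 to 0.11 FPKM in the CL rats and at 0.21 to 0.35 FPKM in the FL rats, without overlap and without a call (adjusted p = 0.0943 from limma). Crot, the carnitine octanoyltransferase of the peroxisome, read 82.7 FPKM in CL7 against 39.6 and 29.1 FPKM in CL5 and CL6, and 17.5, 34.9 and 40.1 FPKM in the FL rats, so that 1 control rat set its spread (difference -0.65, standard error 0.42, adjusted p = 0.302). Over 15 alternatives the difference of Crot lay between -0.97 and -0.22. Angptl4, an inhibitor of lipoprotein lipase, ranged within the FL group from 8.19 FPKM in FL12 to 45.1 FPKM in FL2, around a control range of 21.1 to 33.6 FPKM.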
